A study of Bos taurus with 2 samples.

Results

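AMP-activated protein kinase (AMPK) is built from a catalytic α subunit, a β subunit and a γ subunit, and the genes described here are those of its 7 subunits and of 2 kinases that activate it. The 9 genes are *PRKAA1*, *PRKAA2*, *PRKAB1*, *PRKAB2*, *PRKAG1*, *PRKAG2*, *PRKAG3*, *STK11* and *CAMKK2*. They were chosen by gene symbol, through the transcript accession that the array design gives for each probe. Of these, 7 genes had at least 1 probe and a value, of 19554 genes with a value on the arrays. Those 19554 are 10637 named by a matched symbol and 8917 probe accessions without a match, each counted as a gene, so a gene can be counted more than once among them. No probe accession matched *PRKAG2* or *STK11*, which are not analysed here.

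The samples were LT (longissimus thoracis) muscle of fetuses of Japanese Black cows taken at 8.5 months of gestation. All fetuses were sired by the same bull with semen sorted for males. The HN sample held RNA pooled from 4 fetuses whose dams were fed 120% of the nutritional requirement, and these were the heaviest fetuses of that diet. The LN sample held RNA pooled from 4 fetuses whose dams were fed 60%, and these were the lightest of that diet. Diet and the selection by body weight (BW) therefore cannot be told apart. For each pool 1 one-color Agilent bovine array was used, and both arrays were on the same slide. With 1 array per group there is no replicate check, no test between LN and HN and no measure of how fetuses of a diet vary.

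AMPK senses the energy state of the cell. The γ subunit binds AMP, ADP and ATP, the β subunit holds the complex together and binds glycogen, and the α subunit carries the kinase domain. AMP binding favours phosphorylation of the α subunit in its activation loop, mainly by LKB1, the product of *STK11*, while the calcium-dependent kinase encoded by *CAMKK2* phosphorylates the same site. In muscle, active AMPK raises glucose uptake and fatty acid oxidation and holds back protein and fat synthesis. The array measures transcript abundance and gives no information on phosphorylation or kinase activity.

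*PRKAA1*, the gene of the α1 subunit, was the member for which the study designed qRT-PCR primers, on the same transcript that its array probes refer to (NM_001109802). With qRT-PCR on samples of single fetuses, the paper reported lower *PRKAA1* expression in LN than in HN. Those measurements are not among the values used here. The primers are shown because they are the designed sequences for a member that the files used here hold. The forward primer has 22 bases with 50% GC and the reverse primer 23 bases with 52.2% GC. Both are written 5′ to 3′ in lower case, with no base set apart.
PRKAA1 forward: tcagcaaggccaccaatgtaag
PRKAA1 reverse: cagatggtgtactgatgacctgg

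Values are background-corrected spot signals in arbitrary units or normalized log2 signals, in which the arrays were brought to the same distribution by the quantile method. The comparison is the log2 LN/HN, the LN signal minus the HN signal on the log2 scale, and a gene with several probes has their mean. A probe counts as measured when either array, or both, had it well above background by the flag of the scanner software, with an exception given with the processing. That flag was set for 74.5% of HN spots and 70.9% of LN spots, and negative control spots had median signals of 1.24 in HN and 1.51 in LN. Among 42 probes printed in several spots, the log2 ratio of a single spot had an SD of 0.085, which gives a 95% limit of 0.17 (1.12-fold). Those probes had a median log2 signal of 8.31, so this limit does not describe dim probes, and it covers the array measurement only. The muscle label was checked with 6 measured muscle fibre genes (*CKM*, *ACTA1*, *DES*, *MB*, *TNNT3* and *MYH8*), whose normalized log2 signals were between 13.5 and 17.6 in the HN pool and between 13.8 and 17.5 in the LN pool.

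None of the 7 members with a value differed between the pools by more than 0.32 on the log2 scale in either direction, the fold limit applied here. The members were 4 higher and 3 lower in LN, with a median log2 LN/HN of 0.02 against -0.0033 for all genes. Among all genes, 8.85% were past the fold limit in the higher direction and 9.11% in the lower, together 18.0%, which for 7 genes would be 1.26 genes. A count of 0 is thus near the share of all genes and does not set these genes apart. The genes past the limit were 1731 higher and 1781 lower, but 1191 and 2693 after scaling to the 75th percentile and 1462 and 2260 without normalization. The members' values ran from -0.29 to 0.19, and 4 of the 7 lay between the 25th and 75th percentiles of all genes (-0.14 and 0.13).

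**Figure D1:**
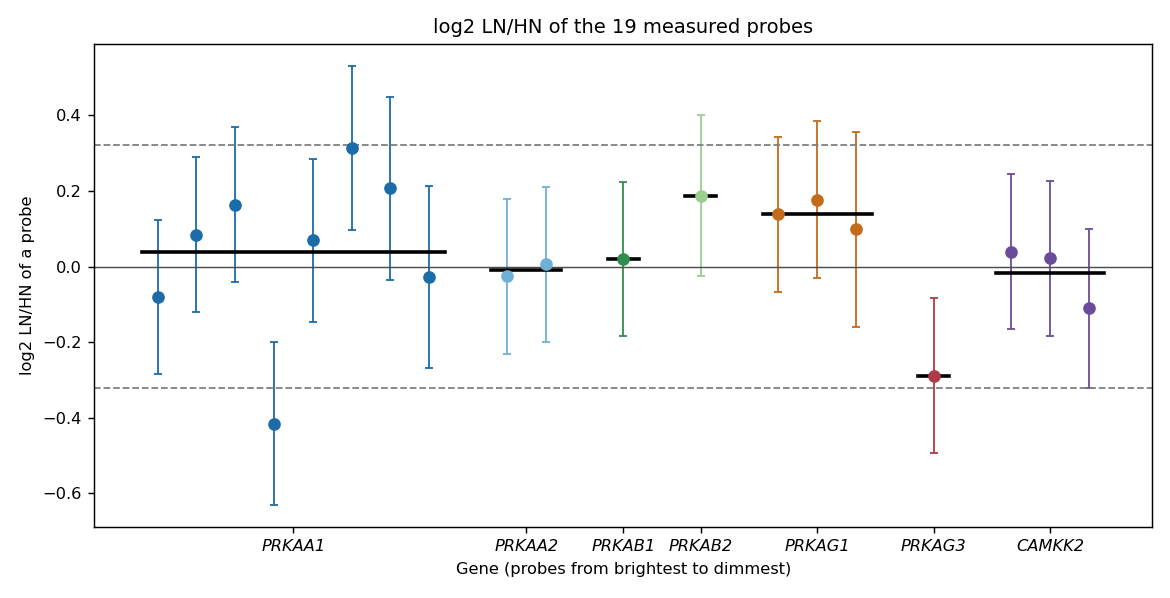
Log2 LN/HN (vertical axis) of each of the 19 measured probes by gene, from the brightest to the dimmest probe, with bars of 1 software error of the log2 ratio on each side, black lines for the gene means and dashed lines at the fold limit of 0.32 in both directions. All gene means lie inside the fold limit, and 1 probe of *PRKAA1* at -0.42 lies outside it.

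The α subunits had mean values near 0. *PRKAA1* had a mean log2 LN/HN of 0.04 (SD 0.22 over 8 probes with 1 accession, a 1.03-fold higher signal), and *PRKAA2*, the gene of the α2 subunit that is the main catalytic form in skeletal muscle, had -0.01 (SD 0.022 over 2 probes). The difference between these means was 0.05, which is below the 95% limit of 0.24 for a difference between 2 spots.

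The *PRKAA1* mean hides a disagreement between its probes. The probes divided into 5 higher and 3 lower in LN, from -0.42 to 0.31, a range of 0.73. The 3 brightest had signals of 825, 282 and 173 in the HN pool and 802, 302 and 197 in the LN pool, with log2 LN/HN of -0.08, 0.08 and 0.16. These 3 lay on both sides of 0, within the limit of a single spot. The lowest value came from a dim probe, A_73_P472333, with a signal of 46.6 in HN and 34.0 in LN (normalized log2 signals 5.53 and 5.11), a log2 LN/HN of -0.42. The highest came from the dim probe A_73_107370, with 30.1 in HN and 36.0 in LN (4.88 and 5.20), a log2 LN/HN of 0.31. The signals of the other 3 dim probes were 38.4, 22.5 and 22.1 in HN and 39.0, 24.9 and 20.6 in LN, with log2 LN/HN of 0.07, 0.21 and -0.03. Thus probes with the same accession gave opposite directions. The gene table lists 8 transcripts of *PRKAA1*, 1 curated and 7 predicted, and where the probes lie on them was not examined.

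The spread was wider among the dim probes of *PRKAA1*. The SD was 0.28 over the 5 probes with a mean log2 signal under 6 and 0.12 over the 3 brighter ones, while their means were close at 0.03 and 0.06. The mean was 0.10 without the lowest probe and 0.00025 without the highest, and the median over probes was 0.08. The probe range of 0.73 was the widest among 12 genes with 8 probes measured on both arrays, whose median range was 0.30. The SD over probes of *PRKAA1* was larger than that of 82.6% of 6896 genes with at least 2 such probes, against 10.1% for *PRKAA2*. The scanner software's error of the log2 ratio was between 0.20 and 0.24 for the 8 *PRKAA1* probes. None of these probes exceeded the 95% limit from that error.

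Probe A_73_P472333 was the 1 member probe of 19 past the fold limit in the lower direction, and 0 were past it in the higher direction. After the normexp background correction it was at -0.29, inside the limit, and after cyclic loess probe A_73_107370 was past the limit in the higher direction at 0.35. Over all measured probes, 9.44% were past it in the lower direction and 9.11% in the higher, which for 19 probes would be 3.52 in both directions together. Dim probes passed more often, with 14.2% of those under a mean log2 signal of 6 past the limit in the lower direction against 5.33% of those at 6 or more. Of the 12 genes with 8 probes, *PRKAA1* included, 41.7% had at least 1 probe past the limit in that direction.

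**Figure D2:**
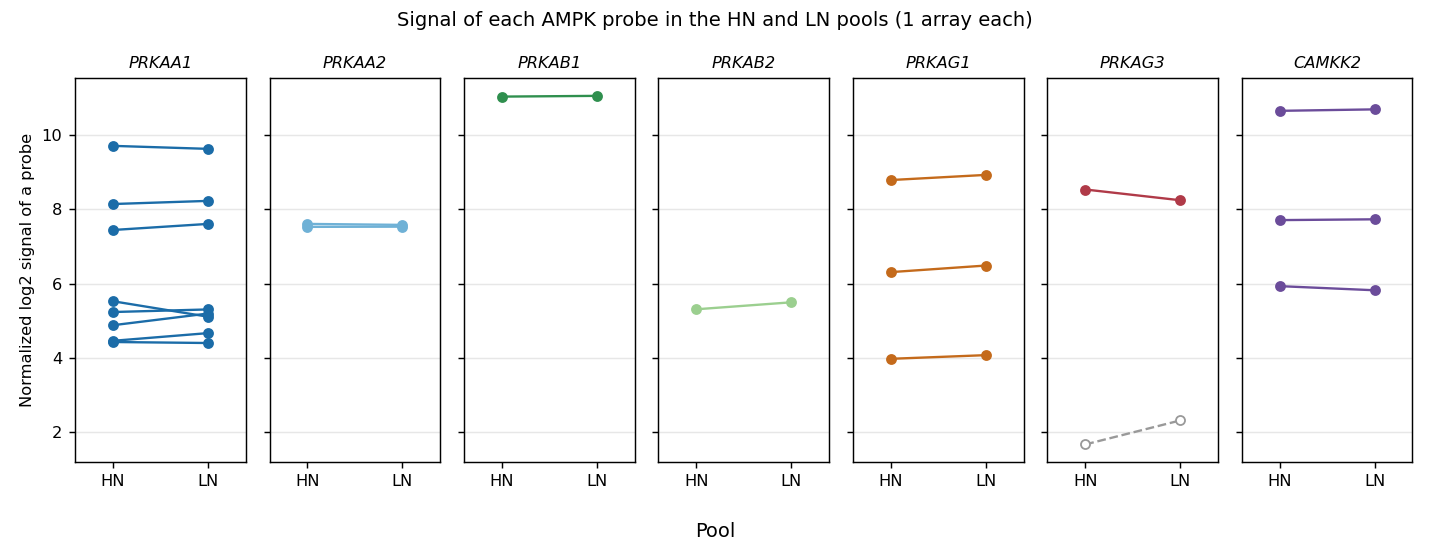
Normalized log2 signal of every member probe in the HN pool and the LN pool, with 1 panel per gene, a line joining the values of a probe and open symbols for the probe that was not well above background. The lines of *PRKAA2*, *PRKAB1* and *CAMKK2* are nearly level, those of *PRKAA1* run both ways, and that of the measured *PRKAG3* probe descends from 8.53 to 8.25.

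The β subunits were measured by 1 probe each. *PRKAB1*, the gene of the β1 subunit, had a signal of 2066 in HN and 2157 in LN (normalized log2 signals 11.03 and 11.05), a log2 LN/HN of 0.02. *PRKAB2*, the gene of the β2 subunit that is abundant in skeletal muscle, had a signal of 40.4 in HN and 44.7 in LN (5.31 and 5.50), a log2 LN/HN of 0.19 or 1.14-fold. This was the highest value of the 7 members, and 62.2% of all genes had a smaller change in either direction. The *PRKAB2* probe is dim, and the difference between both genes, 0.17, was below the limit of 0.24.

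Of the γ subunits, only *PRKAG1* and *PRKAG3* had a value, and these values lay further apart than those of the α or the β subunits. *PRKAG1*, the gene of the widely expressed γ1 subunit, had 3 probes with signals of 436, 79.7 and 16.4 in HN and 493, 89.4 and 16.3 in LN. Their log2 LN/HN were 0.14, 0.18 and 0.10, a mean of 0.14 (SD 0.039, 10.0% higher), so all 3 were higher in LN after quantile normalization. The direction of the dimmest probe depended on the processing, with -0.04 after scaling to the 75th percentile, -0.0092 without normalization and 0 after the normexp correction. Of all genes, 50.2% had a smaller change.

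*PRKAG3*, the gene of the γ3 subunit, which is largely restricted to skeletal muscle and found mainly in fast glycolytic fibres, had the lowest value. Its measured probe, for transcript NM_001030302, had a signal of 368 in HN and 306 in LN (normalized log2 signals 8.53 and 8.25). The log2 LN/HN was -0.29, a ratio of 0.819. The other probe, for transcript NM_001162419, had signals of 3.62 in HN and 4.58 in LN, was not well above background on either array, and gives no fold. The *PRKAG3* value therefore rests on 1 probe.

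The log2 LN/HN of *PRKAG3* exceeded the 95% limit of a replicated spot, as 42.6% of all measured probes did in either direction. Of all genes, 10.9% were as low or lower. It was 0.43 below that of *PRKAG1*, beyond the limit of 0.24 for a difference between 2 spots. In the order from *PRKAB2* down through *PRKAG1*, *PRKAA1*, *PRKAB1*, *PRKAA2* and *CAMKK2* to *PRKAG3*, the step to *PRKAG3* was 0.27, and the other 5 steps were at most 0.098. Only the step to *PRKAG3* was beyond that limit. These limits describe single spots on an array, not means over several probes and not fetuses.

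Markers of muscle fibres and of other cells also differed between the pools. Of the muscle fibre genes, 5 of 6 were lower in LN, with a median log2 LN/HN of -0.18, and the exception was *MYH8*, the perinatal myosin heavy chain, at 0.35. *MB*, encoding myoglobin, was at -0.37 and *TNNT3*, the fast-fibre troponin T, at -0.22. All 4 fibroblast and matrix genes were higher (median 0.28, log2 signals of 7.39 to 12.4 in HN and 7.61 to 12.5 in LN), as were the 3 measured neutrophil genes (0.61 to 1.39, log2 signals of 5.69 to 8.29 in HN and 6.94 to 8.90 in LN). All 4 endothelial genes were lower (median -0.21, log2 signals of 5.79 to 10.5 in HN and 5.60 to 10.2 in LN). The adipocyte (3 of 4 measured), erythroid, macrophage and Schwann cell lists had medians of 0.22, -0.09, -0.18 and 0.07. The part of these cells in the values of *PRKAG3*, *PRKAB2* and *PRKAG1* was not tested. In a bulk sample, fewer cells of a type and less RNA per cell cannot be told apart.

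*CAMKK2* did not differ beyond the spot limit. Its 3 probes had signals of 1582, 208 and 61.5 in HN and 1680, 215 and 56.2 in LN. Their log2 LN/HN were 0.04, 0.02 and -0.11, a mean of -0.02 (SD 0.082). The dimmest probe had the opposite sign to the other probes.

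Of the 19 measured member probes, 13 were higher and 6 lower in LN, and 49.8% of all measured probes were higher. Probes of a gene are not independent. Of the 19, 8 were of *PRKAA1*, and by gene 4 members were higher and 3 lower. The signs of some probes near 0 turned under other scalings. Past the 0.17 limit of a spot were 4 probes in the higher direction and 2 in the lower, against 21.1% and 21.5% of all measured probes. The probes higher than this limit were 2 of *PRKAA1*, that of *PRKAB2* and 1 of *PRKAG1*. The *PRKAA1* and *PRKAB2* probes past the limit in either direction are dim, and the limit does not describe dim probes. The scanner software also gives an error for each signal, and that of the log2 ratio was between 0.20 and 0.26 for the measured member probes. No member probe exceeded the 95% limit from this error, against 7.87% of all probes measured on both arrays, which for 19 probes would be 1.5. The *PRKAG3* difference of -0.29 was larger than its software error of 0.20 and inside the 95% limit from that error.

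**Figure D3:**
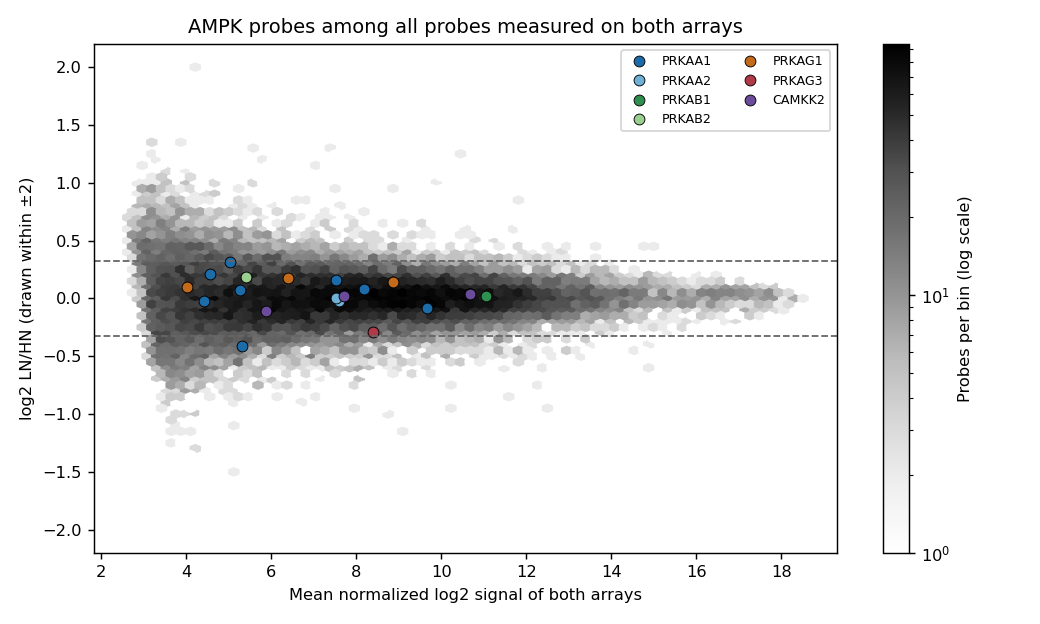
Log2 LN/HN (vertical axis) against the mean normalized log2 signal of both arrays for all probes measured on both, as grey bins whose shade gives the number of probes on a log scale, and for the 19 member probes as points coloured by gene, with dashed lines at the fold limit of 0.32. The cloud of all probes widens toward dim signals, and the member probe past the limit lies at a mean log2 signal of 5.32.

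No member passed the fold limit under any of 12 alternatives. *PRKAB2* and *PRKAG1* were above 0 in all alternatives that gave a value, from 0.099 to 0.22 and from 0.076 to 0.16. *PRKAG3* was between -0.30 and -0.24 in the 10 alternatives that used its measured probe alone. The other 2 averaged in the probe not well above background, and no direction is read from them. *PRKAA1* was above 0 in 9 and below 0 in 3, between -0.08 and 0.08, so its direction depended on the processing. So did that of *CAMKK2*, above 0 in 4 and below 0 in 8. *PRKAA2* was above 0 in 1 and below 0 in 11, and *PRKAB1* above 0 in 11 and below 0 in 1. In the values that the authors normalized, all 19 probes had the same sign as here, with differences of at most 0.014.

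**Figure D4:**
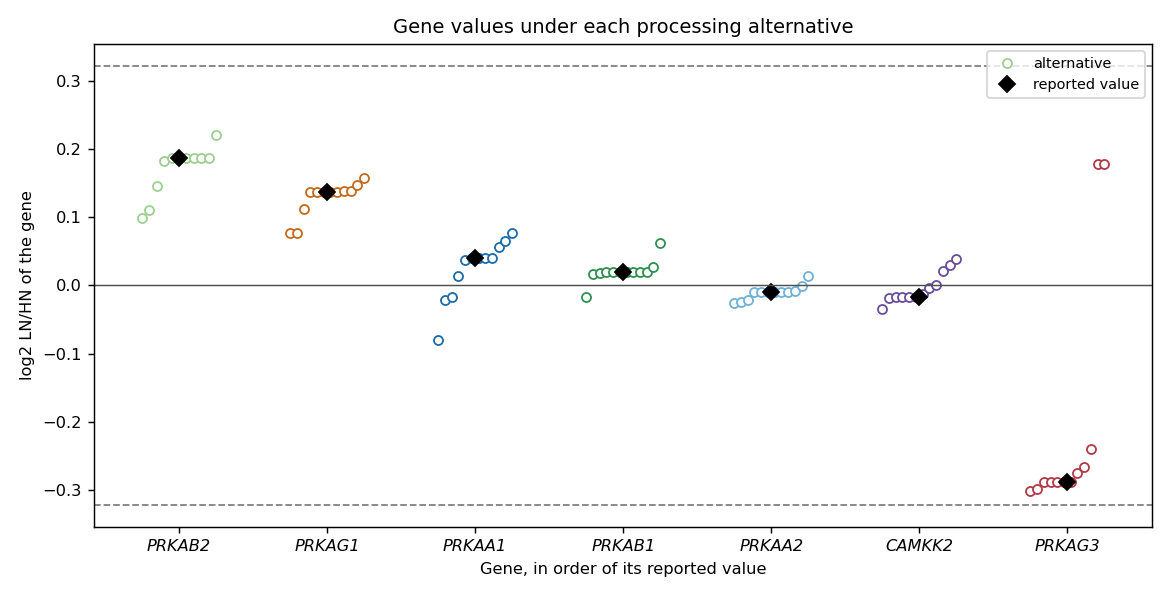
Log2 LN/HN (vertical axis) of each member in the values reported (black diamonds) and under each alternative (open circles), with dashed lines at the fold limit of 0.32. *PRKAB2* and *PRKAG1* stay above 0, and *PRKAG3* stays below 0 in 10 alternatives, while its 2 circles above 0 average in a probe not well above background, which gives no fold.

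Other genes of the pathway were taken from 4 lists of 39 genes, written from general knowledge, of which 26 had a matched probe and 24 a value. Of these 24, 13 were higher and 11 lower in LN, with a median of 0.05. Past the fold limit were 2 higher and 1 lower, beside the 18.0% of all genes. The 3 had normalized log2 signals of at most 4.45, and none of them passed the limit after the normexp background correction, under which 3.58% of all genes did.

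Upstream of AMPK, 5 of 6 genes had a value, with 2 higher and 3 lower, a median of -0.12 and 1 past the fold limit, in the lower direction. *CAMKK1*, a calcium-dependent kinase related to *CAMKK2*, had normalized log2 signals of 4.17 in HN and 3.53 in LN by 1 of its 2 probes, a log2 LN/HN of -0.64. It was between -0.79 and -0.14 in the alternatives without its other probe, which was not well above background, and inside the fold limit in 1 of these, the normexp correction. The 2 alternatives that averaged in that probe also put it inside the limit, and no size is read from them. *CAB39*, the scaffold that activates LKB1 together with a STRAD pseudokinase, was the highest, with 7.96 in HN and 8.21 in LN, or 0.24 (3 probes from 0.16 to 0.29).

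In the folliculin and sestrin list, 3 of 6 genes had a value, with 2 higher and 1 lower, a median of 0.21 and 1 past the fold limit, in the higher direction. *SESN2*, a stress-induced sestrin that acts on AMPK and mTORC1, was at 3.64 in HN and 4.45 in LN by 1 probe, a log2 LN/HN of 0.81, and between 0.16 and 0.90 under the alternatives. *FLCN*, encoding folliculin, was at -0.15. Among kinases related to AMPK that LKB1 also activates, 3 of 12 had a value and 0 passed the fold limit. The extremes were *MARK1* at 0.07 and *MARK2* at -0.06, both kinases of microtubule-associated proteins.

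Of the direct substrates of AMPK, 13 of 15 had a value, with 7 higher and 6 lower, a median of 0.07 and 1 past the fold limit, in the higher direction. *ACACA*, encoding acetyl-CoA carboxylase 1 of fatty acid synthesis, had a log2 LN/HN of 0.39 by 2 of its 3 probes (0.37 and 0.42), and between 0.088 and 0.44 in the alternatives without its probe that was not well above background, inside the fold limit in 3 of these. *CRTC2*, encoding a CREB coactivator, was the lowest at -0.29, from probes at -0.45 and -0.13, and was past the fold limit, between -0.41 and -0.34, with each other scaling and with the authors' values. *ACACB*, encoding the mitochondrial acetyl-CoA carboxylase 2, was named after its values were seen. Its 11 probes ran from -1.54 to 0.66 around a mean of -0.24, a wider disagreement than that of *PRKAA1*. The mean was past the fold limit in the lower direction, at -0.34, after scaling to the 75th percentile, and at -0.33 in both alternatives that averaged in its probe not well above background.

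**Figure D5:**
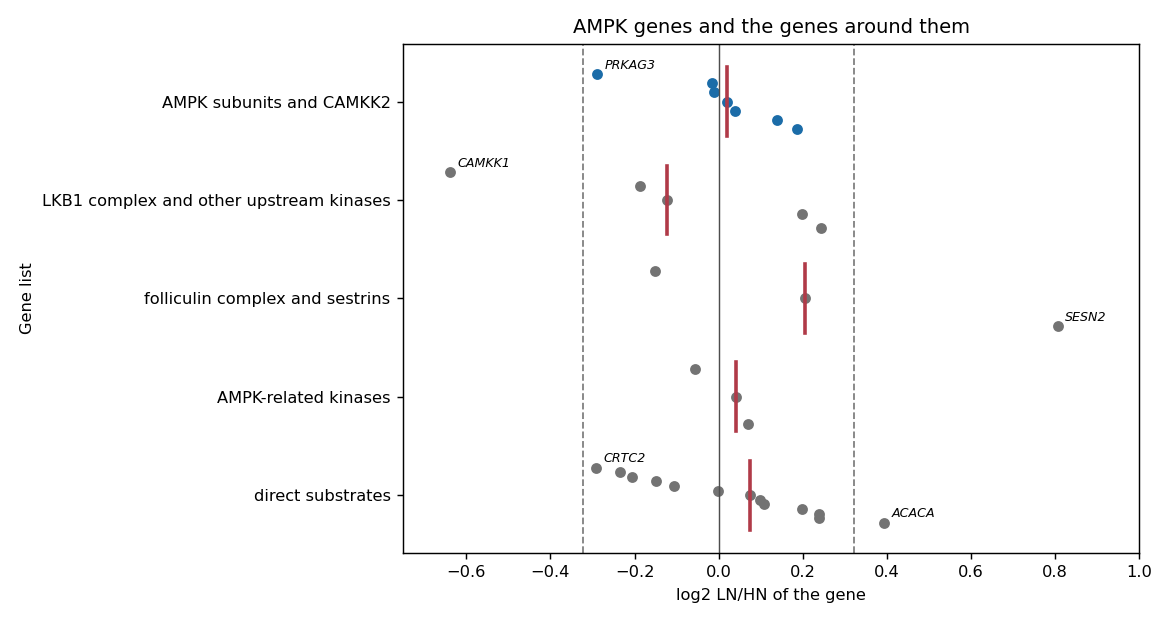
Log2 LN/HN (horizontal axis) of the members (blue points) and of every pathway gene with a value (grey points) by list, with red lines at the list medians, dashed lines at the fold limit of 0.32 and names beside the extremes. *SESN2* at 0.81, *ACACA* at 0.39 and *CAMKK1* at -0.64 lie outside the fold limit, and the other genes lie inside it.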

How the data were processed

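RNA of the pools was labelled and hybridized by the authors to one-color arrays, read with Feature Extraction 11.0.1.1. The deposited spot values are background-corrected and detrended intensity values, not normalized between arrays. The authors' own table, deposited after quantile normalization in GeneSpring GX, holds log2 values, a scale read from the values. The main values here are log2 intensities of 43803 non-control spots, quantile normalized with limma 3.58.1 in R 4.3.3. Spots with an outlier flag were removed (13 spots, none of a member), and spots of a probe were averaged. Where a probe was dim on 1 array, that side was raised to the lowest signal well above background, or kept if already higher. Such a probe had no value if the other array was then not higher. No member probe needed this. Python 3.11.15, numpy 2.4.6, pandas 2.3.3 and matplotlib 3.10.9 were used, and the steps were tested on simulated data. Of 43652 probes, 26742 matched 12603 symbols through the RefSeq gene table of ARS-UCD2.0. No coordinates are given, since the arrays were designed on another assembly. For *PRKAG2* and *STK11* that table lists predicted transcripts only (12 and 6).

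The threshold of 1.25-fold (log2 0.32) is the smaller of the folds that the paper uses. The mean log2 signal of 6 for dim probes is a round setting. The members, lists and settings were chosen with earlier results of these data known. Every member is named; of each pathway list, the genes past 1.25-fold (at most 3 per direction), or otherwise the largest per direction. The alternatives were other scalings (75th percentile, cyclic loess, none), normexp background correction (offset 50), the authors' values, 3 filters on dim probes, the median over probes, the brightest probe, kept outlier flags, and, chosen after seeing the data, only probes well above background on both arrays with a mean log2 signal of 6 or more. The deposited intensity files used here hold no mean signal, so normexp used median signals. With 1 array per group, the number of arrays limits the precision.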

Additional observations from a re-analysis of the deposited data

How the results depend on the processing

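Of the 12 alternatives, 11 were planned and 1 was added after seeing the data. No member passed the fold limit under any of them. The number of member probes past the fold limit higher in LN was 1 in place of 0 after cyclic loess, a *PRKAA1* probe at 0.35. It was also 1 with no filter on dim probes and 1 with probes positive and significant on at least 1 array, where the *PRKAG3* probe not well above background was counted, from which no fold is read. The number of probes past the fold limit lower was 0 in place of 1 after the normexp correction and 0 with probes of a mean log2 signal of 6 or more. The number of pathway genes past the fold limit was 0 after the normexp correction and 1 with probes of a mean log2 signal of 6 or more (*STRADA*, an LKB1 partner, at -0.33), against 3. Of all genes, 3.58% and 9.37% passed it under these settings, against 18.0%. Among single genes, 19 values moved by more than the SD of a spot and 113 did not. These counts cover the members, *CAMKK1*, *SESN2* and *ACACA*, and include the runs that left out a probe. Most of the values that moved were of *CAMKK1*, *SESN2* and *ACACA*. Subtraction of the 75th percentile, cyclic loess and no normalization turned no call of a member. With each probe left out in turn, *PRKAA1* was between 0.00025 and 0.10, *PRKAG1* between 0.12 and 0.16, and *CAMKK2* between -0.04 and 0.03. The planned addition of probes by gene name was not run, because the files used here hold no such column.

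No paired analysis was possible because each group is 1 pooled array, and leaving out a replicate was not possible for the same reason. Dim probes limit *PRKAA1*, *PRKAB2* and the second *PRKAG3* probe. Differences between fetuses within a diet cannot be seen, and diet and selection by BW cannot be told apart.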
